A study of Arabidopsis thaliana with 24 samples.

Results

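Gene expression in brm-1 seedlings was compared with that in wild-type (WT) seedlings of Arabidopsis thaliana, using the 6 libraries labelled brm-1 or WT among the 24 RNA-seq libraries of the study. The other 18 libraries come from bcl7a, bcl7b, bcl7a bcl7b, brm-3, bcl7a bcl7b brm-3 and bcl7a bcl7b brm-1 plants, with 3 replicates of each of the 8 genotypes. All were seedlings of the Col-0 background, 14 days old and grown under short days on Murashige and Skoog medium with sucrose. brm-1 is a T-DNA insertion line of BRM and a null allele, brm-3 is a T-DNA insertion line of the same gene and a hypomorph, and WT is Col-0 without an insertion. Each allele is a single line. The replicates are called biological, but not said to be separate sowings. The p-values therefore measure only the spread between libraries of a genotype, pooled over the 8 genotypes. In bulk seedlings, fewer cells of a type and less RNA per cell cannot be told apart.

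BRAHMA (BRM) is one of the ATPases of plant SWI/SNF chromatin remodelling complexes, machines that use ATP to slide or evict nucleosomes and so change how accessible DNA is to transcription factors. In Arabidopsis, BRM complexes are known to act in leaf development, hormone response, the juvenile-to-adult phase change and flowering, often in opposition to Polycomb repression. The families described below stand for these processes and for the metabolic and environmental responses of a seedling.

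The values are normalized counts per gene, that is, estimates of the fragments from each gene divided by a size factor per library. A gene was called where limma's p, adjusted by the Benjamini-Hochberg method, was under 0.05 and its log2 fold change was beyond 0.6 in size. Over all 21596 genes tested, 6246 (28.9%) were called higher and 4139 (19.2%) lower in brm-1 than in WT, and the median log2 fold change was 0.35. Every count of called list members against WT given below is to be read beside these shares. The depth estimated from the steps between low values was 24.8 to 26.7 M fragments (M, mega) in brm-1 libraries and 19.6 to 24.4 M in WT libraries. The summed normalized count was 18.7 to 22.1 M in brm-1 and 35.3 to 40.9 M in WT, and the 10 highest genes held 13.005 to 13.7% of it in brm-1 and 29.0 to 33.6% in WT. WT, bcl7a and bcl7b libraries summed to 29.9 to 40.9 M and the other 5 genotypes, brm-3 among them, to 16.6 to 22.1 M. The labels name no batch or library set, so that genotype and any such set cannot be told apart in the comparison with WT. The 20 light-harvesting antenna genes described below held 9424180 to 13415700 of the sums in WT and 854235 to 963045 in brm-1. AT3G41979, annotated as an rRNA, held 552669, 567341 and 646867 in brm-1, against 1272070.0, 1793740.0 and 2349900.0 in WT, with a log2 fold change of -1.57 (limma adjusted p = 0.0477) that turned to 1.02 after quantile normalization and was not called without brm-1 replicate 1 (adjusted p = 0.108), 2 (0.106) or 3 (0.0694) or WT replicate 2 (0.0813) or 3 (0.125). WT replicate 1 listed 16191 genes at 0, against 13250 and 13368 in the other WT libraries and 11258 to 11454 in brm-1 libraries. Of the genes called higher in brm-1, 922 were at 0 in WT replicate 1 and above 0 in the other 2 WT libraries, and 498 of these were still called without that replicate. Of 10 genes often used as controls, 5 were called lower in brm-1, among them the polyubiquitin gene UBQ10 (log2 fold change -2.65, SE 0.22) and the actin gene ACT2 (-2.01, SE 0.16). The list's median was -0.66, and 0.18 after the libraries were scaled to the same total.

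BRM itself was lower in brm-1. BRM (AT2G46020, chr2:18922533-18932055, plus strand, TAIR10.1) had 35.2, 44.8 and 31.2 normalized counts in brm-1, against 111, 179.9 and 349 in WT. Every brm-1 library lay below every WT library, and the log2 fold change of the normalized count + 1 was -2.35 (SE 0.36, limma adjusted p = 1.37e-05). A gene total does not show on which side of the insertion the remaining counts lie. In brm-3 the gene stood at 167, 173 and 135, and brm-1 was lower than brm-3 as well (log2 fold change -2.07, SE 0.36).

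Among 21 SWI/SNF subunit genes tested, 2 were called higher and 7 lower in brm-1, with a median log2 fold change of -0.38 that became 0.45 when libraries were scaled to the same total. SWP73B, an accessory subunit, showed the largest fall of the family, with 173, 139 and 174 in brm-1 and 1428, 1338 and 1396 in WT (-3.097, SE 0.20). ARP4, an actin-related protein, had 264, 309.7 and 334 in brm-1 and 697, 654 and 989 in WT (-1.35, SE 0.20), a call that was lost after scaling to the same total (adjusted p = 0.0645). The paralogous ATPase SYD had 204, 196 and 139.6 in brm-1 and 191, 235 and 227 in WT and did not pass the test (adjusted p = 0.443). BCL7A, a subunit that the study examined through its own mutant, had 107, 85.8 and 90.11 in brm-1, against 0, 18.1 and 30.1 in WT. That gene was called higher (3.497, SE 1.02), but not without WT replicate 1, where it is listed at 0 (adjusted p = 0.0653).

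Calls in the whole table ran in both directions. In 5770 of the genes called higher, all brm-1 libraries lay above all WT libraries, and in 3992 of those called lower they all lay below. Across all genes tested, called or not, such separation held for 32.6% upwards and 23.4% downwards. There were 465 called genes listed at 0 in every WT library and 23 listed at 0 in every brm-1 library. Calls without any 1 library numbered 5287 to 6434 higher and 3686 to 4207 lower. Fitting brm-1 and WT alone, without the spread of the other genotypes, gave 4766 higher and 3706 lower. The SD of log2 ratios between replicates was 0.721 to 1.11 in WT pairs and 0.348 to 0.46 in brm-1 pairs. Scaling libraries to the same total moved the median of all genes to 1.15 and gave 11160 higher and 1539 lower calls, or 87.9% higher against 60.1% as deposited. Quantile normalization moved the median to -0.04, with 4803 higher and 4919 lower calls (49.4% higher). Under these scalings no gene called higher became called lower, and 2 genes called lower became called higher, both with quantile normalization. The plot of list members shows where each group of genes lay relative to the median of all genes.

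**Figure D1:**
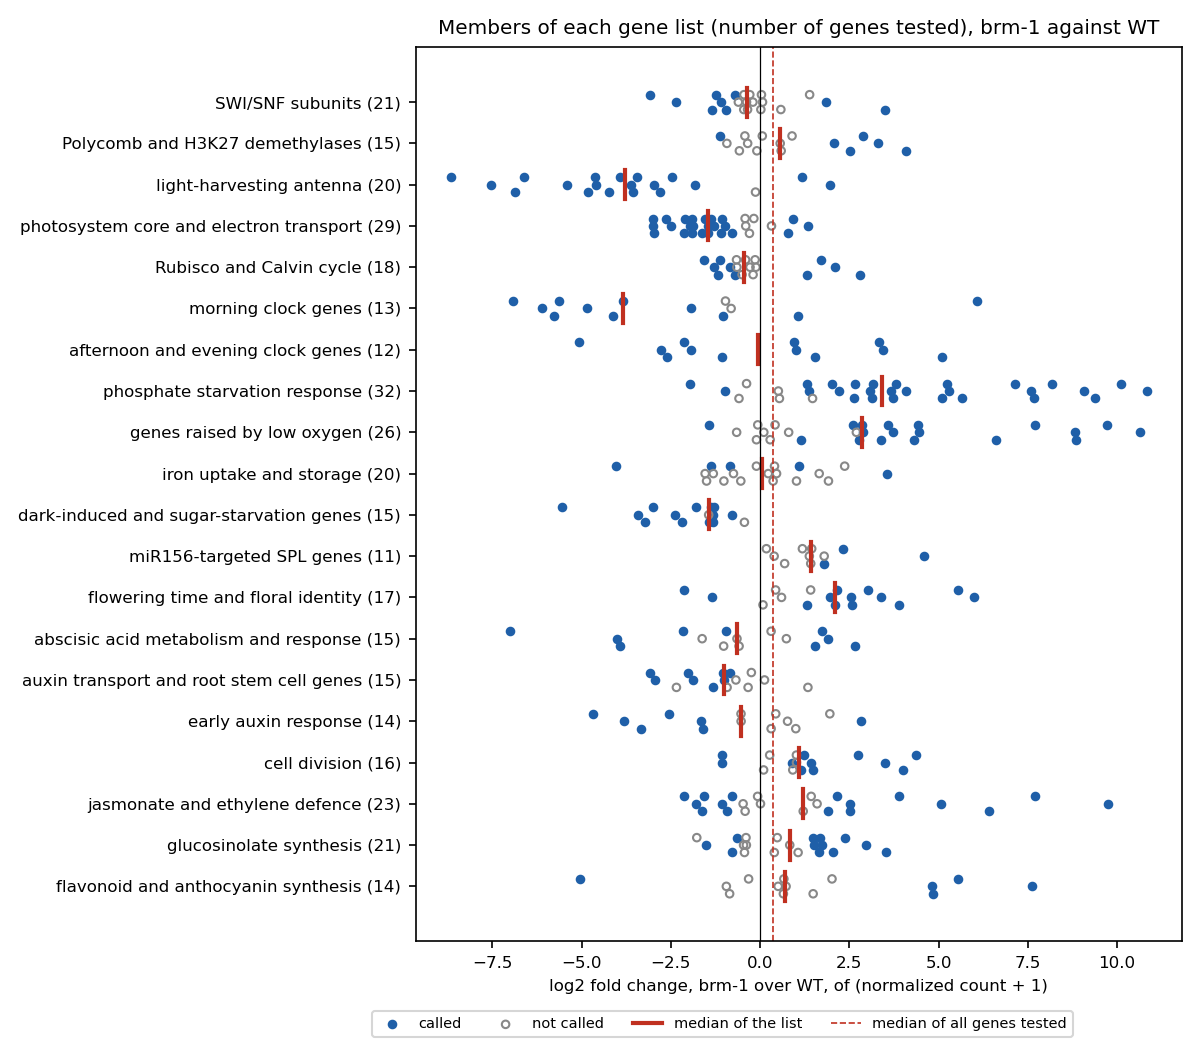
Each point is a gene, placed at its log2 fold change of the normalized count + 1 in brm-1 over WT (n = 3 each), in the row of its list, filled where called and open where not. Thick red ticks mark list medians and the dashed line the median of all genes tested at 0.35. Phosphate starvation genes (median 3.42) lay furthest to the right and morning clock genes (-3.85) and light-harvesting genes (-3.78) furthest to the left. The position of a gene listed at 0 in one genotype depends on the 1 that was added.

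Genes of the phosphate starvation response were higher in brm-1 as a group. Plants short of phosphate switch on this set through the transcription factor PHR1, which SPX proteins hold back when phosphate is plentiful, and the set covers phosphate transporters, phosphatases, lipid remodelling enzymes and the microRNA miR399, which acts against PHO2. Of the 39 genes listed, 37 were in the table and 32 passed the filter on low values. Of those, 25 were called higher and 2 lower, with a median log2 fold change of 3.42, which was 4.16 after scaling to the same total, 2.86 after quantile normalization and 3.25 without WT replicate 1. The summed normalized count of the list was 60746 to 100789 in brm-1 and 13669 to 19855 in WT.

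Sensors at the head of the pathway rose. SPX1, a phosphate sensor that inhibits PHR1, had 14059, 12381 and 7908 in brm-1, against 315, 440.5 and 184 in WT (5.23, SE 0.45, limma adjusted p = 3.93e-09). SPX3, of the same family, had 729.9, 856 and 479 in brm-1 and was listed at 0 in all 3 WT libraries (adjusted p = 5.18e-08). SPX2 had 3229, 3295 and 2325 in brm-1 and 195, 336 and 179.9 in WT (3.67, SE 0.33). The brm-1 and WT libraries did not overlap for any of the 3 genes, and in each the lowest brm-1 value was in replicate 3. PHR1 itself had 559.9, 606 and 392 in brm-1 and 405, 363 and 313 in WT and did not pass the test (adjusted p = 0.0518), though it did after scaling to the same total (3.18e-05) and without brm-1 replicate 3 (0.016). PHO2, the ubiquitin-conjugating enzyme targeted by miR399, had 349, 426 and 339 in brm-1 and 306, 402 and 902 in WT (adjusted p = 0.272), and its log2 fold change of -0.38 turned to 0.46 after scaling to the same total and to 0.07 without WT replicate 3, and was called at -0.70 without WT replicate 1.

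Non-coding members rose as well. MIR399D, the precursor gene of miR399d, had 2637, 2853 and 818 in brm-1, and MIR399C had 734, 706 and 296, while all WT and all brm-3 libraries were listed at 0 for both (adjusted p = 6.79e-07 for MIR399D and 2.95e-07 for MIR399C against WT). MIR399E and MIR399F were listed at 0 in all brm-1 and WT libraries, and MIR399A and MIR399B were not analysed here. These are counts of the primary transcript, and mature miRNAs were not measured. IPS1, a non-coding RNA that sequesters miR399, had 4166, 2866 and 1803 in brm-1, against 19.9, 359 and 0 in WT (7.15, SE 1.69), and its relative AT4 (AT5G03545) had 34939, 26061 and 21401 in brm-1 and 6007, 9279 and 3551 in WT (2.21, SE 0.44). WT replicate 2 was the highest WT library for both. The mature miRNAs that the called precursors encode are shown because they share their seed, bases 2 to 8, printed in capitals, and positions in RefSeq TAIR10.1 (miR399d at chr2:14442988-14443008, minus strand, and miR399c at chr5:24962568-24962588, plus strand).
miR399d 3p: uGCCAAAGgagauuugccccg
miR399c 3p: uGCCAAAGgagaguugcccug

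Enzymes of phosphate release and lipid remodelling rose as well. PEPC1 (AT1G17710), a phosphatase that acts on phosphoethanolamine and phosphocholine, had the largest rise of the genes with any WT signal, with 4047, 4076 and 2792 in brm-1, against 0, 33.1 and 0 in WT (10.11, SE 1.12, limma adjusted p = 1.58e-07). PS2, a pyrophosphatase induced by phosphate starvation, had 1726, 1583 and 1032 in brm-1 and 0, 29.3 and 10.3 in WT (7.66, SE 1.21). The brm-1 libraries exceeded every WT library for both. RNS1, a secreted ribonuclease, had 1315, 836 and 371 in brm-1 and 0, 16.4 and 0 in WT, and PAP17, a purple acid phosphatase, had 16232, 14534 and 8718 in brm-1 and 646, 1523 and 759 in WT. Their log2 fold changes were 8.16 (SE 0.98) and 3.81 (SE 0.32). The galactolipid synthases MGD3 (855, 828 and 579 in brm-1, 0, 4.55 and 9.66 in WT) and MGD2 (741, 564 and 647 in brm-1, 63.9, 54.2 and 32.5 in WT) rose by 7.58 and 3.72. SQD1, which makes the head group of sulfolipid, had 3274, 2809 and 2281 in brm-1, against 498, 444 and 394 in WT (2.63, SE 0.19). The phospholipases NPC4 (5.66, SE 1.09) and PLDZ2 (5.09, SE 0.79), the glycerol-3-phosphate permease G3PP1 (3.13, SE 0.34) and PHO1;H1, a relative of the phosphate exporter PHO1 (5.28, SE 1.03), were called higher too.

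Transporters did not all follow. PHT1;4, a high-affinity phosphate transporter, had 1219, 928 and 932 in brm-1, against 414, 397 and 416 in WT (1.31, SE 0.26). PHT1;1, its close relative and a main route of phosphate uptake, was lower, with 772, 716 and 775 in brm-1 and 2286, 3348 and 3266 in WT (-1.95, SE 0.25). Neither gene's brm-1 libraries overlapped the WT libraries.

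The regions upstream of the called members were searched for P1BS, the PHR1 binding motif, spelled GNATATNC, on either strand, in the 250 bases before and 50 after each annotated start (RefSeq TAIR10.1). It was found in 13 of the 25 members called higher (52.0%), against 1356 of 21428 genes tested with a region (6.33%). For MIR genes the annotated start is that of the hairpin, not of the primary transcript. In the 250 upstream bases alone it stood in 8 of the 25, against 5.55% of all genes, and PEPC1, RNS1, MGD3, IPS1 and SPX1, all with large rises, had none there. The upstream bases of 3 protein-coding members that hold it are shown to let the motif, in capitals, be read in place, and were chosen for holding it. SPX3 holds it at 2 positions (chr2:18606160-18606409, plus strand), PS2 at 1 (chr1:27466349-27466598, minus strand) and NPC4 at 1 (chr3:845097-845346, minus strand). A match is a run of letters, not a measured binding site.
SPX3: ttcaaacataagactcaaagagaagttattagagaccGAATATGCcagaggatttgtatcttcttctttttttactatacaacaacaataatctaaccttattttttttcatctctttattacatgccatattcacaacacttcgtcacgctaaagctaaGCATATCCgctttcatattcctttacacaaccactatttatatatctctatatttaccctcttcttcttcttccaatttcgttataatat
PS2: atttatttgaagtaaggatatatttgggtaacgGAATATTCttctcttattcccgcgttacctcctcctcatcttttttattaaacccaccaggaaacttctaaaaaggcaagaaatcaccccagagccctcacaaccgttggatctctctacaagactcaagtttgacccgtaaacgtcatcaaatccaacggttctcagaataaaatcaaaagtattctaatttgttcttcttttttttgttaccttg
NPC4: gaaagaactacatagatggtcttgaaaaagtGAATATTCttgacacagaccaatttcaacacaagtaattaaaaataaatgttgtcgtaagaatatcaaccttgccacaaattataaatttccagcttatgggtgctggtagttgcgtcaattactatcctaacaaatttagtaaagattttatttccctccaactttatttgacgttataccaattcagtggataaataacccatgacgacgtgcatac

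Genes known to be raised by low oxygen were also higher. This list of 26 genes was put together after the values had been seen, so its counts only describe it. Low oxygen stabilizes group VII ethylene response factors, which switch on fermentation enzymes and other genes of anaerobic metabolism. Of the 26, 17 were called higher and 1, the ethylene receptor gene ETR2, lower in brm-1, with a median of 2.86 (3.68 after scaling to the same total, 2.47 after quantile normalization). ADH1, the alcohol dehydrogenase of ethanol fermentation, had 695, 503 and 552 in brm-1, against 35.6, 54.3 and 39.9 in WT (3.73, SE 0.70, limma adjusted p = 1.39e-04). PDC1, pyruvate decarboxylase, which supplies its substrate, had 165, 89.3 and 148 in brm-1 and 0, 12.5 and 16.3 in WT (4.41, SE 0.84). HB1, a non-symbiotic haemoglobin that scavenges nitric oxide, had 3981, 4329 and 3589 in brm-1 and 279.7, 212 and 129 in WT (4.32, SE 0.37). In all of them brm-1 and WT libraries were separate.

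Regulators of the same response moved with the enzymes. HRE2, an ethylene response factor of group VII, had 552, 401 and 429.7 in brm-1 and was listed at 0 in every WT library (adjusted p = 8.37e-10). HRA1, a trihelix repressor of the response, had 166, 160.3 and 123 in brm-1 and 0, 12.5 and 22.2 in WT (4.46, SE 0.77). The plant cysteine oxidases PCO1 and PCO2, which mark those factors for degradation when oxygen is present, had log2 fold changes of 2.85 (SE 0.57) and 3.37 (SE 0.60). FTM1, a stearoyl-ACP desaturase, had 6331, 4666 and 5613 in brm-1, against 0, 20.9 and 11.8 in WT (9.71, SE 0.68). AT2G17850, a member of the list without a symbol in the annotation, had 2392, 1882 and 926 in brm-1 and was listed at 0 in WT (adjusted p = 3.10e-12). The calmodulin-like gene CML38 (7.70, SE 0.74), AT4G10270 (8.82, SE 1.02) and its neighbour AT4G10265 (8.21, SE 0.81) had WT values at or near 0. ACO1, an enzyme of ethylene synthesis, had 528, 548 and 524 in brm-1 and 81.7, 102 and 76.9 in WT (2.61, SE 0.36). Plots of both sets by library show most of the plotted genes higher in brm-1 than in WT and brm-3. Exceptions included PHR1, whose brm-1 and WT libraries overlapped, and PHT1;1, which lay below WT.

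**Figure D2:**
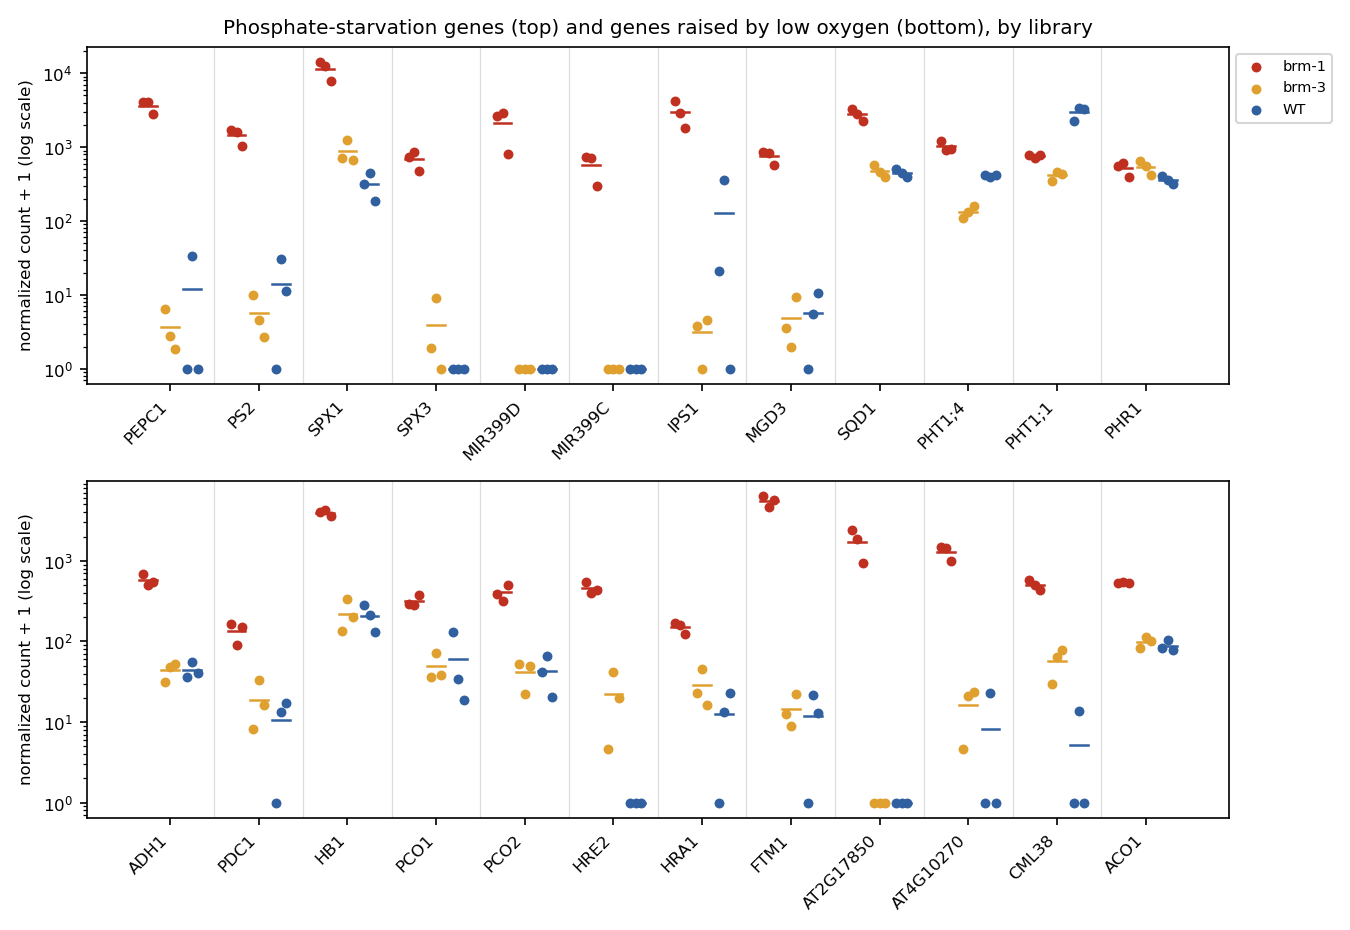
Normalized count + 1 on a log axis for phosphate-starvation genes (top) and genes raised by low oxygen (bottom). Each point is a library and each short line the mean of 3, with brm-1 on the left, brm-3 in the middle and WT on the right of each gene. PEPC1 read 2792 to 4076 in brm-1 and at most 33.1 in WT, and FTM1 4666 to 6331 in brm-1 and at most 20.9 in WT, with brm-3 beside WT.

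Photosynthesis genes were lower in brm-1, the antenna most of all. Light-harvesting complex proteins (LHCA and LHCB) bind chlorophyll and funnel light energy to the photosystems. Of 20 antenna genes, 17 were called lower and 2 higher in brm-1, with a median log2 fold change of -3.78 (-2.94 after scaling to the same total, -2.50 after quantile normalization). They held 3.92 to 4.57% of the summed normalized count in brm-1 and 26.7 to 32.8% in WT. LHCB1.1 had 1192, 1083 and 848 in brm-1, against 407543, 520969 and 347581 in WT (-8.67, SE 0.33, limma adjusted p = 1.37e-14). LHCB2.1 had 1303, 1223 and 927 in brm-1, against 209394, 248068 and 186030.0 in WT (-7.55, SE 0.26). The WT libraries of both genes lay far above the brm-1 libraries.

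Members of the antenna differed in how far they fell. LHCB2.2 (-6.87, SE 0.26) and LHCB2.3 (-6.62, SE 0.41) fell nearly as far as LHCB2.1, while LHCB1.5 (-5.41), LHCB4.2 (-4.83), LHCB1.2 (-4.63), LHCA1 (-4.59) and LHCB1.4 (-4.24) fell less, and LHCB4.1 (-2.80) less again. LHCB1.3 had 491838, 476957 and 494621 in brm-1 and 3741930.0, 4497390.0 and 3267700.0 in WT (-2.96, SE 0.74), a call lost with brm-1 and WT fitted alone (adjusted p = 0.147) and with quantile normalization (adjusted p = 0.186). LHCB1.1, LHCB1.2 and LHCB1.3 are near-identical neighbours, as are LHCB2.1 and LHCB2.2, so that the split of fragments between copies is uncertain. The exceptions were LHCB4.3, an antenna isoform linked to high light, with 468, 296 and 165 in brm-1 and 68.5, 58.7 and 92.5 in WT (1.96, SE 0.38), and LHCA5, a minor photosystem I antenna, with 5946, 5424 and 3802 in brm-1 and 2545, 2589.7 and 1628 in WT (1.17, SE 0.21). Both rose, with separate libraries. The I-box GATAAG, searched on either strand of the same 300-base window, stood in 6 of the 17 genes that fell, against 14.95% of all genes, and the CCA1-binding site AAAAATCT in 4, against 7.87%.

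Core subunits of the photosystems were lower too. Of 29 photosystem and electron transport genes, 21 were called lower and 3 higher, with a median of -1.46 (-0.62 after scaling to the same total and -0.41 after quantile normalization). PSBO1, of the oxygen-evolving complex, had 36814, 32076 and 29626 in brm-1, against 267953, 267518 and 253992 in WT (-3.01, SE 0.27). The photosystem I subunits PSAF (-3.003, SE 0.23) and PSAD2 (-2.97, SE 0.21) fell by a similar amount. PSBR, of photosystem II, had 343661, 336980.0 and 180316 in brm-1 and 1259210.0, 774809 and 546301 in WT (-1.56, SE 0.48), which lost its call after scaling to the same total (adjusted p = 0.0607), with brm-1 and WT fitted alone (0.174) and without brm-1 replicate 3 (0.0572), and was 0.02 after quantile normalization. ATPD, a subunit of the chloroplast ATP synthase, rose, with 33823, 33333 and 21584 in brm-1 and 14959.5, 15086 and 6450.0 in WT (1.35, SE 0.28).

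Carbon fixation genes moved in both directions. Of 18 Rubisco and Calvin cycle genes, 4 were called higher and 6 lower, with a median of -0.46 that turned to 0.38 after scaling to the same total and to 0.28 after quantile normalization. RBCS1A, the main small subunit gene of Rubisco, had 141648, 93681 and 98379 in brm-1, against 311213, 377496 and 285782 in WT (-1.56, SE 0.37, and 0.14 after quantile normalization). RBCS1B, another small subunit gene, had 35696, 26297 and 17902 in brm-1 and 4868, 4811 and 2184 in WT (2.79, SE 0.31). The split of fragments among the RBCS genes was not tested and is uncertain. The rises also took in the regulatory protein gene CP12-2 (2.09, SE 0.26), the glyceraldehyde-3-phosphate dehydrogenase gene GAPA2 (1.71, SE 0.26) and SBPASE, sedoheptulose-bisphosphatase (1.305, SE 0.23).

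Most clock genes that act in the morning were lower in brm-1, and later ones went both ways. The plant clock is a loop in which morning factors such as CCA1 and LHY repress evening genes, which in turn repress the morning set. Of 13 morning genes, 9 were called lower and 2 higher (median -3.85). CCA1 had 9.14, 0 and 0 in brm-1, against 86.5, 131 and 109 in WT (-5.65, SE 0.85, limma adjusted p = 9.88e-06). LHY, its partner, had 27.4, 23.8 and 19.1 in brm-1 and 28.0, 43.2 and 82.1 in WT and did not pass the test (adjusted p = 0.225), except after quantile normalization (0.0217). The pseudo-response regulators PRR9 (6.45, 0 and 7.74 in brm-1, 341, 282 and 219 in WT) and PRR7 (31.4, 31.9 and 40.9 in brm-1, 421, 615 and 515 in WT), repressors of CCA1, fell by 6.11 and 3.85 on the log2 scale.

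All 4 LNK genes, coactivators that work with RVE8, were lower. LNK4 had 4.22, 20.9 and 15.6 in brm-1 and 1858, 1273 and 1396 in WT (-6.91, SE 0.61), and LNK1, LNK2 and LNK3 had log2 fold changes of -5.78, -4.84 and -4.11. RVE2, a MYB factor of the CCA1 family, moved the other way, with 4823, 5006 and 3440.1 in brm-1, against 53.3, 71.0 and 68.6 in WT (6.07, SE 0.37). The G-box CACGTG was found in the windows of 7 of the 9 morning genes called lower, against 8.74% of all genes.

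Afternoon and evening genes split evenly, 6 higher and 6 lower of 12 (median -0.06). GI, a scaffold protein of photoperiod sensing, had 8.61, 40.6 and 38.1 in brm-1, against 774, 819 and 913 in WT (-5.06, SE 0.56). ZTL, the blue-light receptor that degrades TOC1, had 392, 323 and 397 in brm-1 and 2129.6, 2142 and 2533 in WT (-2.61, SE 0.20), and CHE, a repressor of CCA1, 683, 976 and 792 in brm-1 and 4764, 6504 and 5556 in WT (-2.78, SE 0.18). Those were lower in every brm-1 library. The evening complex gene ELF4 had 1987, 1821 and 1043 in brm-1 and 199, 193 and 93.5 in WT (3.34, SE 0.28), TOC1 had 485, 558 and 544 in brm-1 and 196, 128 and 233 in WT (1.55, SE 0.21), BOA, a relative of LUX, had 443, 520.4 and 546 in brm-1 and 0, 67.0 and 45.8 in WT (5.09, SE 0.85) and LUX, of the evening complex, rose by 0.99 (SE 0.19). The evening element AAAATATCT was found in the windows of 3 of the 6 genes that rose and 2 of the 6 that fell, against 3.03% of all genes. ELF4-L1, a relative of ELF4, was listed at 0 in brm-1 and had 168, 40.2 and 26.4 in WT (adjusted p = 1.67e-05). The time of day at which seedlings were collected is not given in the sources used here, and its part in these values was not tested.

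**Figure D3:**
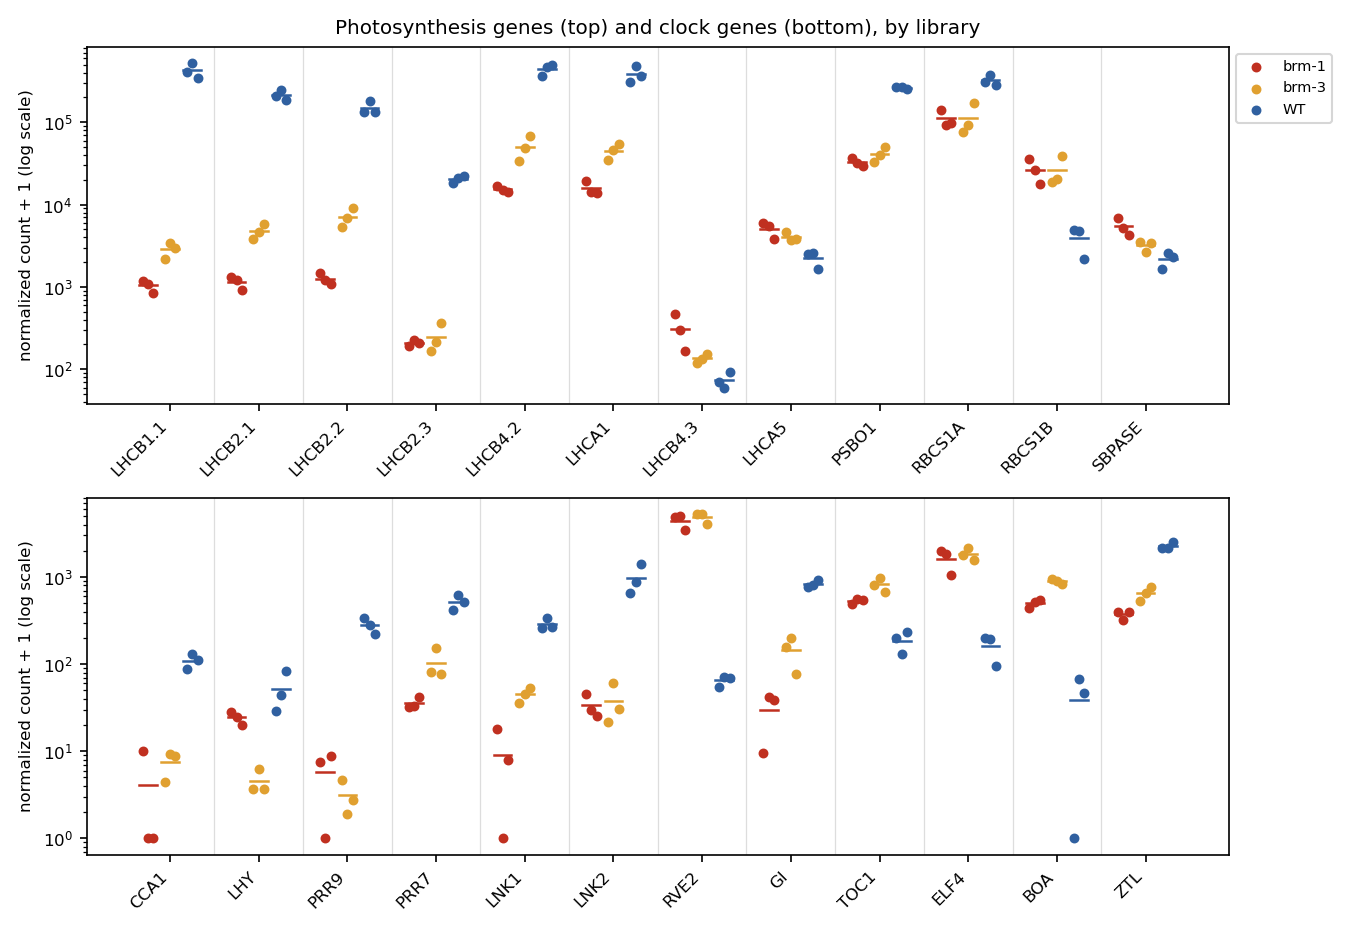
Normalized count + 1 on a log axis for photosynthesis genes (top) and clock genes (bottom). Each point is a library and each short line the mean of 3, in the order brm-1, brm-3, WT. LHCB2.1 read 927 to 1303 in brm-1 and 186030.0 to 248068 in WT, RVE2 3440.1 to 5006 in brm-1 and 53.3 to 71.0 in WT, and in LHY brm-3 lay below both.

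Genes switched on by darkness or sugar shortage were lower. Of 15 tested, 13 were called lower and none higher, with a median of -1.44, and 6 lower and none higher after scaling to the same total. DIN6, an asparagine synthetase induced in the dark, had 437, 393 and 898 in brm-1, against 17880.5, 17820.4 and 49698 in WT (-5.55, SE 0.35, limma adjusted p = 5.24e-11). AKINBETA1, a subunit of the SnRK1 energy-sensing kinase, had 709, 507 and 899.6 in brm-1 and 6773, 6075 and 9615 in WT (-3.42, SE 0.24). BCAT2, of branched-chain amino acid breakdown (-3.22, SE 0.43), KMD4, an F-box protein (-2.997, SE 0.17), and DRM1, dormancy-associated (-2.38, SE 0.25), fell with them. MGL, methionine gamma-lyase, is no member of the list and had 174, 126 and 291 in brm-1, against 9609, 10362 and 15029 in WT (-5.94, SE 0.23).

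Nitrate and iron genes showed no such shared direction. Of 14 nitrate genes, 2 were called higher and 5 lower (median -0.30, and 0.44 after scaling to the same total). NRT1.5, which loads nitrate into the xylem, had 383, 424 and 570.1 in brm-1 and 3129, 3401 and 4567 in WT (-3.01, SE 0.30), while ASN2, an asparagine synthetase, had 3023, 3029 and 2387 in brm-1 and 1101, 1765 and 834 in WT (1.25, SE 0.25). Of 20 iron genes, 2 were called higher and 3 lower (median 0.06). The ferritin FER4 had 3411, 3832 and 2335 in brm-1 and 2121, 1272 and 1159 in WT (1.095, SE 0.20). OPT3, a phloem transporter that carries iron, had 427, 309 and 586 in brm-1, against 1114, 1215 and 975 in WT (-1.36, SE 0.22, call lost after scaling to the same total with adjusted p = 0.06). FRO2, the root ferric reductase, was low in both, with 0, 0 and 3.07 in brm-1 and 27.8, 15.1 and 36.8 in WT (-4.02, SE 1.24).

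The age pathway, in which miR156 and miR157 hold back SPL transcription factors in young plants, moved at several points. MIR156A, 1 of the main miR156 precursor genes, had 46.3, 40.7 and 31.2 in brm-1, against 60.7, 156 and 128 in WT (-1.43, SE 0.56, limma adjusted p = 0.0378). MIR156C, the other main one, had 261, 285 and 261 in brm-1, against 533, 734 and 868 in WT (-1.37, SE 0.24, adjusted p = 5.34e-05). Both lay below WT in every brm-1 library. The MIR156C call was lost after scaling to the same total (adjusted p = 0.0913), and the MIR156A call there (0.374) and in several other fits, among them those without brm-1 replicate 1 (0.0563), 2 (0.0729) or 3 (0.11) and without WT replicate 2 (0.129) or 3 (0.0967).

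MIR157C went the other way, with 1078, 1356 and 634 in brm-1, against 0, 8.35 and 0 in WT (8.86, SE 0.95, adjusted p = 9.45e-08). It was the only one called higher of the 12 miR156 and miR157 precursor genes listed. Only 4 of the 12 were tested, and MIR157A among them was not called. The untested ones were listed at 0 in all brm-1 and WT libraries. The mature products are shown because miR157 is a variant of miR156 that is longer by a base at its start, which shifts the seed in capitals by a base (RefSeq TAIR10.1, miR157c at chr3:6244673-6244693, miR156a at chr2:10676534-10676553 and miR156c at chr4:15415491-15415510, all on the minus strand).
miR157c 5p: uUGACAGAagauagagagcac
miR156a 5p: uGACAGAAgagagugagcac
miR156c 5p: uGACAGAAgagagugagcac

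Of 11 SPL genes targeted by miR156, 3 were called higher and none lower, against 28.9% called higher over all genes tested. The 8 not called included SPL9 and SPL15. The list's median was 1.42, but 0.33 after quantile normalization and 0.91 without WT replicate 1. After scaling to the same total 7 were called higher (median 2.07). SPL3, an activator of flowering genes, had 4265, 4837 and 4314 in brm-1, against 1219, 1359 and 1271 in WT (1.80, SE 0.33). SPL4, its close relative, had 195, 216 and 197 in brm-1 and 30.01, 38.7 and 55.4 in WT (2.31, SE 0.46). SPL13A, whose split from a near-identical copy is uncertain, had 107, 81.0 and 54.8 in brm-1 and 0, 0 and 34.0 in WT (4.59, SE 1.16). No SPL3, SPL4 or SPL13A value in brm-1 fell into the WT range.

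Flowering genes of opposed function rose together. Of 17 tested, 11 were called higher and 2 lower (median 2.095, and 1.098 after quantile normalization). CO, the photoperiod activator of flowering, had 65.9, 56.2 and 65.2 in brm-1 and was listed at 0 in WT (adjusted p = 1.57e-04). FUL, a MADS-box gene of the inflorescence and fruit, had 51.2, 76.9 and 80.9 in brm-1 and 0, 0 and 2.26 in WT (5.55, SE 0.81). The floral organ identity genes PI (642, 901 and 397 in brm-1, 227, 112 and 43.7 in WT) and SEP3 (508, 693 and 514 in brm-1, 197, 124 and 34.0 in WT) had log2 fold changes of 2.55 (SE 0.53) and 2.57 (SE 0.42).

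The repressors of flowering FLC, MAF1 and MAF2 also rose. FLC had 264, 231 and 322 in brm-1 and 0, 49.9 and 122 in WT (3.88, SE 0.95), a call lost when brm-1 and WT were fitted alone (adjusted p = 0.106). MAF1 had 1019.8, 1136 and 882 in brm-1 and 196, 352 and 188 in WT (2.095, SE 0.25), and MAF2 594, 646 and 511 in brm-1 and 169, 157 and 124 in WT (1.96, SE 0.24). SVP, a repressor that acts with FLC, was lower, with 1545, 1720.2 and 1586 in brm-1, against 4935, 3773 and 3821 in WT (-1.36, SE 0.17, and -0.52 after scaling to the same total, short of the threshold). SOC1, the integrator that FLC represses, had 432, 397 and 331 in brm-1 and 385, 177 and 238 in WT and did not pass (adjusted p = 0.102), but did after scaling to the same total (4.20e-04) and without WT replicate 1 (0.0192).

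Polycomb products silence FLC and floral genes, in part through histone H3K27 methylation, which H3K27 demethylases remove. A list of both kinds of gene gave 5 higher and 1 lower call of 15 (median 0.56), beside 28.9% higher and 19.2% lower over all genes tested. After quantile normalization the list gave 3 higher and 3 lower (median 0.16). It gave 2 higher and 1 lower, with a median of 0.01, without WT replicate 1, and no higher call with brm-1 and WT fitted alone. VRN2, of the complex that silences FLC after cold, had 301, 318 and 195 in brm-1 and 0, 57.7 and 64.5 in WT (4.09, SE 0.96), which was not called when brm-1 and WT were fitted alone (adjusted p = 0.0773). CLF, a histone methyltransferase, had 53.7, 73.5 and 94.4 in brm-1 and 0, 12.5 and 70.1 in WT (2.89, SE 0.88), not called without WT replicate 1 (adjusted p = 0.0846) or in that fit (0.156).

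Abscisic acid genes went both ways, and included some of the deepest falls. RAB18, a dehydrin that serves as a marker of the hormone, had 22.2, 20.6 and 13.2 in brm-1, against 2498, 2584 and 2300.1 in WT (-6.999, SE 0.56, limma adjusted p = 1.26e-09). HAI1, a PP2C phosphatase induced by the hormone, had 40.1, 73.0 and 44.4 in brm-1 and 732, 685 and 1151 in WT (-4.01, SE 0.58). NCED3, the rate-limiting enzyme of its synthesis under drought, had 23.7, 17.37 and 15.6 in brm-1 and 198, 276 and 475 in WT (-3.92, SE 0.97). All 3 were far below WT in every brm-1 library. The abscisic acid list gave 4 higher and 5 lower calls of 15 (median -0.65), beside 28.9% and 19.2% over all genes tested. It gave 4 of each (median 0.18) after scaling to the same total, and 2 higher and 5 lower after quantile normalization. Log2 fold changes in the list reached 2.66, and the 3 members named above are all falls. DOG1, the seed dormancy gene, had 0, 0 and 1.82 in brm-1 and 91.1, 177 and 248 in WT (-6.82, SE 0.70), while none of 11 seed maturation genes was called by limma, with 0 at an unadjusted p under 0.05, although 2 were called lower after quantile normalization, 1 lower without WT replicate 1, and 1 higher with brm-1 and WT fitted alone.

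Gibberellin genes gave 1 higher and 6 lower calls of 21 (median 0.20, and -0.55 after quantile normalization), but 8 higher and 2 lower, with a median of 1.04, after scaling to the same total. The DELLA repressors RGL3 (20.2, 27.3 and 10.4 in brm-1, 421, 279 and 432 in WT) and GAI (267, 313 and 399 in brm-1, 1505, 2284 and 2903 in WT) fell by 4.29 and 2.74 on the log2 scale. CPS, the first committed enzyme of gibberellin synthesis, had 22.0, 17.37 and 18.5 in brm-1 and was listed at 0 in WT (adjusted p = 1.63e-04).

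Of 15 auxin transport and root stem cell genes, 8 were called lower and none higher (median -1.02), against 4 lower and none higher, with a median of -0.18, after scaling to the same total. The influx carriers LAX1 (809, 744 and 715 in brm-1, 4602, 6612 and 8499.8 in WT) and AUX1 (732, 745 and 928 in brm-1, 2909, 3224 and 3703 in WT) and the efflux carrier PIN7 (632, 673 and 744 in brm-1, 2208, 2533 and 2898 in WT) had log2 fold changes of -3.08, -2.03 and -1.89. Early auxin genes gave 1 higher and 6 lower calls of 14 (median -0.53, and 0.31 after scaling to the same total). GH3.5, an enzyme that conjugates auxin to amino acids, had 134, 132 and 233 in brm-1, against 3363, 2903 and 7235 in WT (-4.68, SE 0.32), and GH3.3 (-3.82, SE 0.65) and GH3.6 (-3.34, SE 0.25) fell too. IAA4, a repressor of auxin response, had 3666, 4326 and 3455 in brm-1 and 318, 962 and 494 in WT (2.83, SE 0.40). Of 15 SAUR genes, a family of early auxin genes, 6 were called lower and none higher (2 lower and 1 higher after scaling to the same total), with SAUR22 at 26.7, 81.2 and 51.1 in brm-1 and 681, 394 and 442 in WT (-3.33, SE 0.53).

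Cytokinin response regulators gave 7 higher and 2 lower calls of 15 ARR genes (median 0.84, and -0.01 after quantile normalization). ARR7, a repressor of cytokinin response, had 876, 1005 and 819.9 in brm-1 and 46.6, 265 and 78.6 in WT (3.16, SE 0.48), and ARR9, of the same type, had 2369, 2604 and 1912 in brm-1 and 653, 694 and 350.0 in WT (2.07, SE 0.28). ARR15 had 10.6, 10.7 and 23.5 in brm-1 and was listed at 0 in WT, and was not called after quantile normalization (adjusted p = 0.0902).

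Leaf and meristem regulators gave 4 higher and 7 lower calls of 20 (median -0.01), a balance that turned to 9 higher and 1 lower (median 0.82) after scaling to the same total. STM, which keeps the shoot meristem undifferentiated, had 82.8, 101 and 90.9 in brm-1, against 268, 338 and 257 in WT (-1.64, SE 0.37, call lost after scaling to the same total with adjusted p = 0.0645). KNAT6, a homeobox gene of the same class, had 223, 242 and 207 in brm-1 and 45.8, 43.7 and 26.4 in WT (2.54, SE 0.36). ANT, which promotes organ growth, had 229, 211 and 265 in brm-1 and 40.2, 74.9 and 85.7 in WT (1.86, SE 0.32). CUC1, a boundary gene, had 0.883, 4.94 and 0 in brm-1 and 36.8, 12.6 and 11.8 in WT (-3.07, SE 0.90), values close to the minimum of 10 that a gene needed in 3 libraries to be tested.

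Cell division genes were mostly higher, with 9 higher and 2 lower calls of 16 (median 1.09, 1.91 after scaling to the same total and 0.93 after quantile normalization). The mitotic cyclin CYCB2;2 had 68.4, 78.3 and 103 in brm-1, against 0, 25.2 and 1.49 in WT (4.37, SE 0.91). CDKB2;2, a kinase of the transition to mitosis, had 222, 209 and 262 in brm-1 and 91.4, 69.2 and 95.8 in WT (1.43, SE 0.28). HIK, a kinesin needed to divide the cell, had 31.6, 38.9 and 40.1 in brm-1 and 0, 0 and 11.8 in WT, and was not called after quantile normalization (adjusted p = 0.0643). Growth-related cell wall genes had no shared direction, with 9 higher and 7 lower calls of 26 XTH genes and 1 higher and 5 lower of 19 EXPA genes. XTH7, a xyloglucan-modifying enzyme, had 18787, 15944 and 11882 in brm-1 and 6536, 5268 and 2463 in WT (1.80, SE 0.27), and XTH15 553, 529 and 3597 in brm-1 and 7444, 11606 and 17096 in WT (-3.48, SE 0.61), with brm-1 replicate 3 above the other brm-1 libraries. Ribosomal protein genes gave 10 higher and 4 lower calls of 21 RPL genes and 5 of each of 24 RPS genes. Over all genes tested, 28.9% were called higher and 19.2% lower. These genes were picked by an annotated symbol beginning RPL or RPS and a number. That rule takes only part of the ribosomal protein genes and does not separate cytosolic from organelle ribosomes. RPL4 (AT1G07320) was among those that fell (-2.002, SE 0.17).

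Markers of root cell types gave 1 higher and 4 lower calls of 14 (median -0.93), and 2 of each with a median of -0.10 after scaling to the same total. Their summed normalized count was 19805 to 26999 in brm-1 and 24597 to 28422 in WT. The endodermal gene CASP1 had 114, 64.1 and 73.3 in brm-1, against 509, 615 and 767 in WT (-2.92, SE 0.30), and SHR, a root radial patterning factor, 83.6, 107 and 128 in brm-1 and 571, 352 and 497 in WT (-2.14, SE 0.26). SCR, its partner, had -1.33 (SE 0.25) and lost its call after scaling to the same total (adjusted p = 0.127). WOX5, of the root organizing centre, had 31.9, 36.2 and 42.6 in brm-1 and 0, 0 and 8.84 in WT (4.14, SE 0.98). The part of root share in the phosphate and auxin values was not tested.

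Defence genes of the jasmonate and ethylene branches moved in both directions, with 9 higher and 7 lower calls of 23 (median 1.21, and -0.07 after quantile normalization). Of the 9 that rose, 5 encode plant defensins, small antifungal proteins. PDF1.3 had 1694, 1322 and 275 in brm-1 and was listed at 0 in WT (adjusted p = 1.65e-09). PDF1.1 had 830.3, 586 and 394 in brm-1 and 0, 19.9 and 0 in WT (7.71, SE 1.03). PDF1.2A (48.7, 22.1 and 31.2 in brm-1) and PDF1.2B (72.3, 132 and 63.2 in brm-1) were listed at 0 in WT. These copies are alike in sequence, so that their split is uncertain.

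ORA59, the factor that activates defensin genes, had 703, 780.0 and 578 in brm-1 and 316, 164 and 32.4 in WT (2.50, SE 0.82), and was not called without WT replicate 3 (adjusted p = 0.119). PR4, a chitin-binding protein, had 41304, 49142 and 32211 in brm-1 and 13874, 12321 and 7477 in WT (1.89, SE 0.38). Within jasmonate synthesis AOS fell, with 1919, 1832 and 1309.8 in brm-1 and 8548, 7797 and 5759 in WT (-2.13, SE 0.21), while AOC1, the next enzyme, rose, with 5221, 4932 and 3635 in brm-1 and 1445, 787 and 430.2 in WT (2.52, SE 0.31).

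Salicylic acid genes gave 3 higher calls and no lower call of 7 (median 1.82), beside 28.9% called higher over all genes tested. They gave 2 higher calls after quantile normalization (median 0.57) and 2 without WT replicate 1 (median 0.93). PAD4, a regulator of the response, had 1756, 1425 and 565 in brm-1 and 239.6, 379 and 146 in WT (2.24, SE 0.36). PR1, its classical marker, had 689, 80.8 and 23.5 in brm-1 and was listed at 0 in WT and brm-3, with most of the signal in brm-1 replicate 1. Of 59 WRKY transcription factor genes, 21 were called higher and 8 lower, beside 28.9% and 19.2% over all genes. Their median of 0.94 turned to -0.26 after quantile normalization, with 15 called higher and 17 lower. WRKY18 (221, 207 and 165 in brm-1, 41.4, 14.2 and 15.3 in WT) and WRKY75 (202, 201 and 132 in brm-1, 1.62, 42.7 and 29.9 in WT), both induced by pathogens, rose by 3.17 and 3.53, and WRKY65 had -2.33 (SE 0.22).

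Glucosinolate genes, which make the mustard-oil defence compounds, gave 9 higher and 3 lower calls of 21 (median 0.83, 1.66 after scaling to the same total and 0.65 after quantile normalization). MYB28, the main activator of the methionine-derived branch, had 1215, 1183 and 989 in brm-1, against 297, 197 and 171 in WT (2.38, SE 0.21, limma adjusted p = 6.62e-09), and its relative MYB29 149, 127 and 120.4 in brm-1 and 18.6, 38.9 and 5.15 in WT (2.97, SE 0.79). The chain elongation enzymes BCAT4 (3509, 3368 and 3223 in brm-1, 1241, 1519.7 and 664 in WT) and MAM1 (3629, 3652 and 2909 in brm-1, 817, 1286 and 1006 in WT) and the core enzyme CYP79F1 (1124, 1306 and 947 in brm-1, 306, 555 and 114 in WT) had log2 fold changes of 1.64, 1.73 and 2.05. TGG2, a myrosinase that breaks the compounds down, was lower (-1.52, SE 0.27). ESP, which steers the breakdown towards nitriles, had 0, 12.6 and 0.748 in brm-1, against 216, 337 and 579 in WT (-6.93, SE 0.71).

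Flavonoid genes gave 4 higher calls and 1 lower call of 14 (median 0.70), beside 28.9% higher and 19.2% lower over all genes tested. After quantile normalization they gave 4 higher and 3 lower (median 0.13). CHS, the first enzyme of the pathway, had 1015, 750.5 and 541 in brm-1, against 25.6, 40.4 and 16.2 in WT (4.81, SE 0.55). MYB111, an activator of flavonol synthesis, had 206, 207 and 178 in brm-1 and was listed at 0 in WT (adjusted p = 5.44e-10). The anthocyanin activator PAP2 (AT1G66390) had 86.9, 75.04 and 13.98 in brm-1 and was also listed at 0 in WT. MYBL2, a repressor of anthocyanin synthesis, had 98.4, 109.6 and 138 in brm-1, against 3424, 3223 and 4866 in WT (-5.03, SE 0.25), separate in every library. Cold genes had 2 higher calls and 1 lower call of 8, KIN1 with 756, 677 and 306 in brm-1 and 0 in WT, and CBF2, an upstream activator of cold genes, with 51.4, 24.7 and 52.8 in brm-1 and 286, 915 and 307 in WT (-3.38, SE 0.93). Heat genes had 3 higher and 2 lower calls of 11, and no higher call after quantile normalization. The cold and heat counts stand beside the same 28.9% and 19.2% over all genes.

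**Figure D4:**
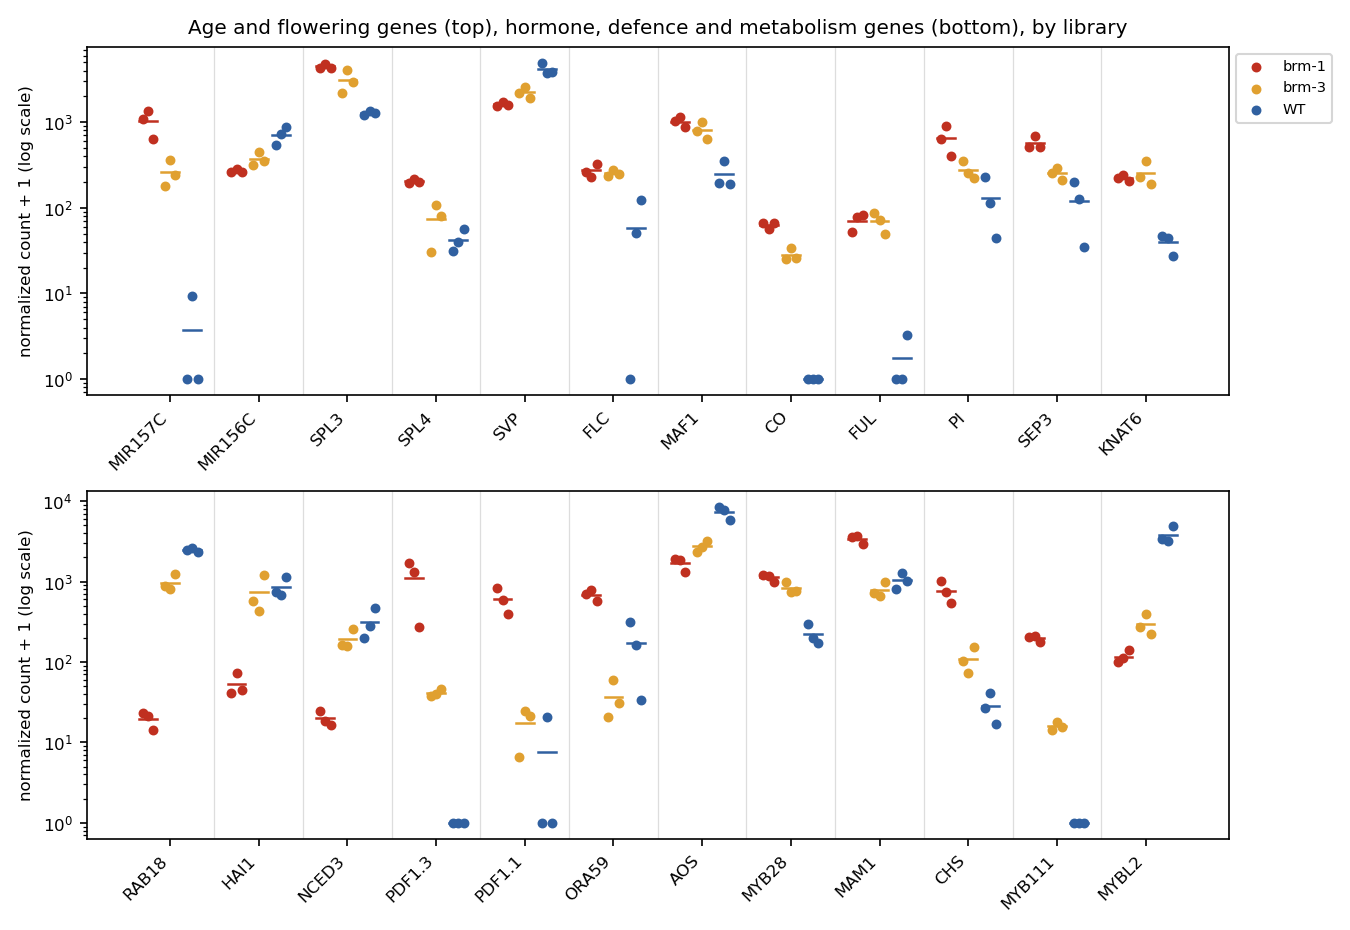
Normalized count + 1 on a log axis for age and flowering genes (top) and hormone, defence and metabolism genes (bottom). Each point is a library and each short line the mean of 3, in the order brm-1, brm-3, WT. MIR157C, CO, PDF1.3 and MYB111 were near or at 0 in WT, and RAB18 read 13.2 to 22.2 in brm-1, 797 to 1229 in brm-3 and 2300.1 to 2584 in WT.

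Several of the most changed genes belong to no list. Of those that rose, AT1G07050 had 1263, 1187 and 429 in brm-1 and 0, 3.26 and 0 in WT, AT3G25240 had 1104, 1117 and 876 in brm-1 and 22.2, 0 and 0 in WT, and PFA-DSP2, an atypical phosphatase, had 1228, 1343 and 949 in brm-1 and 0, 61.8 and 0 in WT. CYS2, a cystatin protease inhibitor, had 1776, 2265 and 1680.1 in brm-1 and 0, 10.6 and 39.5 in WT (7.93, SE 0.78), and LTP4, a lipid transfer protein, 812, 654 and 202 in brm-1 and 0, 6.33 and 0 in WT (7.94, SE 0.99). All lay above WT in each brm-1 library. AT1G07590, among the highest normalized counts in brm-1, had 391451, 434302 and 253295 in brm-1 and 136794, 96015 and 68856 in WT (1.86, SE 0.42). SNOR77, whose product is a small nucleolar RNA, had 2134, 11.4 and 1.14 in brm-1 and 0 in WT, and its call rested on brm-1 replicate 1 (adjusted p = 0.0843 without it).

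Of those that fell, CIPK20, a kinase regulated by calcium sensors, had 0, 5.79 and 7.40 in brm-1, against 1089, 915 and 526 in WT (-7.71, SE 1.03), and ELI3-1, an alcohol dehydrogenase linked to defence, 229.7, 273 and 181 in brm-1 and 11508, 11510.2 and 16978 in WT (-5.86, SE 0.28). AT2G35945 (15.9, 28.7 and 0 in brm-1, 769, 1009 and 1447 in WT) and AT4G36032 (0, 0 and 70.3 in brm-1, 405, 628 and 589.7 in WT) overlap genes on the other strand, from which reads may not be told apart. AT5G27607 (51.8, 78.5 and 44.1 in WT), AT1G66060 (145, 14.6 and 11.8 in WT) and AT1G02630 (89.9, 25.8 and 9.11 in WT) were listed at 0 in all brm-1 libraries. AT1G59124, also at 0 in brm-1, had 136, 0 and 304 in WT, and leaving out any brm-1 library or WT replicate 1 or 3 ended its call (adjusted p = 0.18 without WT replicate 3 and 0.132 without WT replicate 1).

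The null allele was then set against brm-3, which shares the lower summed counts of brm-1. Of 21596 genes, 1153 (5.34%) were called higher in brm-1 than in brm-3 and 994 (4.6%) lower. These counts depended on single libraries, with 648 higher and 642 lower calls without brm-1 replicate 1, 649 and 594 without brm-1 replicate 2, 749 higher without brm-3 replicate 1, and 756 higher and 638 lower without brm-3 replicate 3. Fitting brm-1 and brm-3 alone gave 2110 higher calls, and a threshold of 1 left 502 lower calls. The comparisons with WT and with brm-3 share the brm-1 libraries.

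Phosphate and low-oxygen genes were higher in brm-1 than in brm-3. In the phosphate list 24 of 32 were called higher and none lower, and in the low-oxygen list 21 of 26 were called higher and none lower. The low-oxygen list was put together after the values of these same brm-1 libraries had been seen, so its count only describes it. PEPC1 had 4047, 4076 and 2792 in brm-1 and 5.51, 1.82 and 0.876 in brm-3 (log2 fold change 10.11, SE 1.12, limma adjusted p = 2.57e-06). IPS1 had 4166, 2866 and 1803 in brm-1 and 2.74, 0 and 3.56 in brm-3 (10.08, SE 1.69). SPX1 had 14059, 12381 and 7908 in brm-1 and 719, 1248 and 659 in brm-3 (3.73, SE 0.45). PHT1;1, lower in brm-1 than in WT, was higher in brm-1 than in brm-3, where it had 348, 464 and 429 (0.87, SE 0.25). FTM1 had 6331, 4666 and 5613 in brm-1 and 11.6, 7.95 and 21.2 in brm-3 (8.66, SE 0.68), and ADH1 695, 503 and 552 in brm-1 and 30.3, 47.7 and 50.8 in brm-3 (3.75, SE 0.70). AT5G20790, in no list, had 3900.4, 3879 and 2876 in brm-1, 14.3, 1.77 and 5.96 in brm-3 and 39.8, 155 and 7.37 in WT.

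Values of 3 members in the triple mutants are given with no test. SPX3 ranged from 96.6 to 587 in bcl7a bcl7b brm-3 and from 63.6 to 86.9 in bcl7a bcl7b brm-1, against at most 7.33 in bcl7a bcl7b, 9.80 in bcl7a and 0 in bcl7b. ADH1 ranged from 504 to 855 in bcl7a bcl7b brm-3 and from 2722 to 3417 in bcl7a bcl7b brm-1, against 42.1 to 64.4 in bcl7a bcl7b. MIR399D ranged from 0 to 280.1 in bcl7a bcl7b brm-3 and reached 4.51 in bcl7a bcl7b brm-1, and was at 0 in every library of bcl7a, bcl7b, bcl7a bcl7b, brm-3 and WT.

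Antenna and clock genes were set against brm-3 as well. Of 20 antenna genes, 9 were called lower and 1 higher in brm-1 than in brm-3, with LHCB2.1 at 1303, 1223 and 927 in brm-1 and 3851, 4687 and 5733 in brm-3 (-2.04, SE 0.26), and LHCB1.2 the exception (1.03, SE 0.30). None of the 12 evening clock genes was called higher and 3 were called lower, and RVE2 had 5226, 5307 and 4099.6 in brm-3 (-0.15, SE 0.37, not called). DOG1 had 0, 0.744 and 0 in brm-3 and was near 0 in both alleles. RAB18 had 893, 797 and 1229 in brm-3, above brm-1 in every library (-5.64, SE 0.56), and 4 of 15 abscisic acid genes were called lower in brm-1 and none higher.

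Of 20 iron genes, 10 were called lower and 3 higher in brm-1 than in brm-3, beside 3 lower and 2 higher than in WT. IMA1, a peptide signal of iron shortage, had 4.44, 17.2 and 10.9 in brm-1 and 294, 171 and 219.6 in brm-3 (-4.40, SE 0.70), with 33.4, 44.5 and 16.1 in WT, where the difference was not called (adjusted p = 0.0777) except after quantile normalization (0.00402) and without WT replicate 3 (0.0453). Glucosinolate genes gave 8 higher calls and none lower, and MAM1 had 721, 652 and 979 in brm-3 (2.13, SE 0.21). ESP had 0, 12.6 and 0.748 in brm-1 and 526, 480.2 and 742 in brm-3 (-7.64, SE 0.71), EM6, a late seed protein, 0, 0 and 0.725 in brm-1 and 79.0, 33.2 and 112 in brm-3 (-5.82, SE 0.92), and AT2G47880, 0.892, 4.09 and 2.91 in brm-1 and 150.2, 113 and 119 in brm-3 (-5.25, SE 0.65). AT1G27565 had 0, 13.7 and 4.26 in brm-1, 498, 660.0 and 627 in brm-3 and 0 in WT, and was called lower than in brm-3 (-7.12, SE 1.02), and higher than in WT only without brm-1 replicate 1 (adjusted p = 0.0206). SAG21, a late embryogenesis abundant protein of senescence and stress, had 138436, 138053 and 167456 in brm-1, 12973, 19436 and 15709 in brm-3 and 80336, 89896 and 63598 in WT. It was called higher than in brm-3 (3.22, SE 0.32) and than in WT (0.93, SE 0.32), the call against WT being lost without brm-1 replicate 3 (adjusted p = 0.0607) or WT replicate 3 (0.0737). MIR157C had 179.9, 364 and 242 in brm-3 (1.95, SE 0.95, adjusted p = 0.228).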

How the data were processed

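RNA was sequenced from 24 seedling libraries, 3 for each of 8 genotypes. The authors quantified paired-end reads with Salmon 1.5.1 against the AtRTD2 transcripts and ran DESeq2 (version given as 3.10 in the submitters' processing notes), and their table of normalized counts for 33681 genes was used here as deposited, as a signal with no raw counts. The paper's methods name TPM values as the DESeq2 input. Low values came in nearly whole steps (81.8 to 91.7% of values up to 4 fragments within 0.15 of a whole number), which gave an estimated depth but not counts for a count test. Salmon divides reads shared by copies of a gene, so that near-identical genes are uncertain, and no library strand is given in the sources used here. No interval from counting error is given, since the values are not counts.

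Values were tested as log2(normalized count + 1) with limma 3.58.1 (trended empirical Bayes) in R 4.3.3 over the 21596 genes that reached 10 in 3 or more libraries. All genotypes entered 1 model, which shares their spread, and bcl7a bcl7b replicates 1 and 3, which differed by far less than other pairs (SD of log2 ratios 0.0866 against 0.348 to 1.11), were averaged into 1 sample, leaving 23. Fold changes are on this scale and understate changes of low genes. Calls needed a p under 0.05 after Benjamini-Hochberg adjustment and a log2 fold change beyond 0.6. A gene at 0 in every library of a genotype is given as listed at 0, with no fold change.

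Of the identifiers, 32954 were found in RefSeq TAIR10.1, which also gave positions, promoter windows and miRNA sequences. The submitters name TAIR10 as the build. Promoter windows could be read for 21428 of the genes tested.

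Genes were named by a rule: SWI/SNF subunits; up to 15 of the largest rises and falls with separate groups and not listed at 0 in a whole group; 5 genes each way listed at 0 in 1 group; up to 6 called members each way of each list and others by role; the 10 highest genes in WT and in brm-1; and the 5 largest differences each way from brm-3. Only part of the genes it picks are described, and of the highest genes only those in a list, AT3G41979, AT1G07590 and SAG21. Family counts and the genes described within families were added later. The gene lists and genes were chosen with earlier results of these data known, and the low-oxygen list after its values were seen.

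Alternatives were pseudocounts of 0.1 and 5, no filter or a mean of 50, scaling to the same total with or without the 100 highest genes, quantile normalization, the 2 compared genotypes alone, all 24 libraries as deposited, a replicate block, no trend, a threshold of 1 and leaving out each replicate. Scripts used Python 3.11.15 with pandas 2.3.3, numpy 2.4.6 and matplotlib 3.10.9.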

Additional observations from a re-analysis of the deposited data

How the results depend on the processing

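The main counts depended on how libraries were scaled. As deposited, 6246 genes were called higher and 4139 lower in brm-1 than in WT. Scaled to the same total, 11160 were higher and 1539 lower, with a median of all genes of 1.15 on the log2 scale, against 0.35. The other settings kept both counts within 1.5 times, and leaving out a replicate gave 5287 to 6434 higher and 3686 to 4207 lower. Against brm-3, leaving out a replicate gave 648 to 953 higher and 594 to 753 lower. Fitting brm-1 and brm-3 alone gave 2110 higher, and a threshold of 1 left 502 lower. The causes of these shifts were not tested. Called list members numbered 250 to 272 when a replicate was left out.

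The sign of the log2 fold change turned for SYD (0.55) and PHO2 (0.46) after scaling to the same total, for PHO2 (0.0731) without WT replicate 3, while it was -0.704 and called without WT replicate 1, and for RBCS1A (0.14), PSBR (0.0205), AT3G41979 (1.02) after quantile normalization. EM6, at or near 0 in all brm-1 and WT libraries, has no direction to speak of, and its fitted value there was -1.36. The cause was not tested. Of 182 named genes called against WT, 160 were called the same way under every alternative that could be fitted.

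The labels do not say whether replicate numbers pair samples. Same-numbered brm-1 and WT libraries deviated from their group means with correlations of -0.0172 to 0.0473, and different-numbered ones with -0.0547 to 0.0312. Correlations this small show no large shared effect, but cannot show that same-numbered replicates were handled apart. With the replicate block the higher calls were 6222 against WT and 1184 against brm-3, and the lower calls 4131 against WT and 1012 against brm-3, and the block changed no call of a named gene against WT.

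Depth limits what can be said of genes at 0, since an estimated 19.6 to 26.7 M (mega) fragments stand behind each brm-1 or WT library and no raw counts were used.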
